A study of Mus musculus with 8 samples.

Results

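Chromatin accessibility was compared between squamous cell carcinoma (SCC) cells that lack focal adhesion kinase (FAK-/- cells) and their derivatives into which wild-type FAK was put back (FAK-WT-expressing cells). This comparison used 4 of the 8 ATAC-seq samples of the series, 2 per line, and asks which accessible regions depend on FAK status. SCC cells with Ha-Ras as driver gene came from skin tumours that the DMBA/TPA protocol (an initiating mutagen followed by a promoting phorbol ester) raised in K14CreER FAKflox/flox mice of the FVB strain. In this genotype the keratin 14 promoter drives a Cre recombinase that 4-hydroxytamoxifen switches on, and both lines carry the FAK deletion made by adding 4-hydroxytamoxifen to the cultured tumour cells. The FAK-WT line was made from a FAK-/- clone by retroviral transduction with a FAK-WT construct and, per the methods of the study, hygromycin selection, so each line stands for 1 clonal background and transduction and selection cannot be told apart from FAK. The study calls the replicates biological, without stating whether they were separate cultures, and with 2 against 2 libraries a two-sided exact permutation test cannot go below 0.333. For that reason region counts are given without a p-value.

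FAK is a tyrosine kinase and scaffold that integrins recruit to focal adhesions, where it binds Src, paxillin, talin and p130Cas. FAK also enters the nucleus, where it meets transcription factors. In ATAC-seq, Tn5 transposase cuts and tags DNA that is not covered by nucleosomes, so a pile of fragments (a peak) marks an accessible promoter, enhancer or insulator.

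The lists held 53703 and 39036 peaks in FAK-WT-expressing cells and 43136 and 35236 in FAK-/- cells, so the 24383 peaks with the highest −log10 p (the peak caller's evidence for coverage above the surrounding background) were taken from each. Overlapping peaks merged into 33812 regions. Regions with a call in each FAK-WT library but in no FAK-/- library (FAK-WT-only regions) numbered 1389, which is 4.11% of all regions. The opposite set (FAK-null-only regions) numbered 1331, or 3.94%. The 4 mixed pairs of 1 FAK-WT and 1 FAK-/- library exclusively shared 546 to 647 regions each, fewer than either pair of replicates, while 16331 regions (48.3%) were called in all 4 libraries. The share of regions in common was 0.7 and 0.701 between replicates and 0.649 to 0.669 between lines, but with all peaks it was 0.641 and 0.676 between replicates and 0.573 to 0.654 between lines, so the values overlapped. With all peaks, which formed 62814 regions, the difference in list size showed. FAK-WT-only regions were then 3385 (5.39%) and FAK-null-only regions 810 (1.29%), but 3287 regions were also shared exclusively by FAK-WT replicate 1 and FAK-/- replicate 1, the largest lists of their lines.

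**Figure D1:**
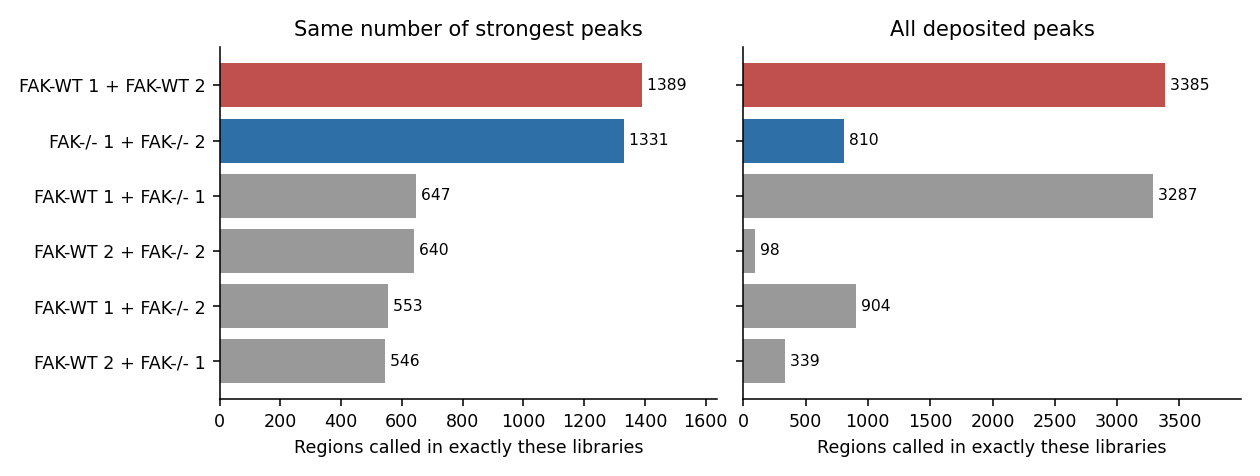
Number of regions called in exactly 2 of the 4 libraries (x axis), for each of the 6 pairs of libraries (y axis), from the 24383 strongest peaks per library and from all peaks. At equal peak number the replicate pairs (1389 and 1331 regions) stand above the mixed pairs (546 to 647), whereas with all peaks the mixed pair of the largest lists (3287) comes close to the FAK-WT pair (3385).

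Most of these regions were weaker rather than absent in the other line. Among FAK-WT-only regions, 629 (45.3%) overlapped a lower-ranked peak in both FAK-/- lists, 462 (33.3%) in 1 of them and 298 (21.5%, 95% Wilson interval 19.4 to 23.7%) in none, which is 0.881% of all regions. Among FAK-null-only regions, 857 (64.4%) overlapped a lower-ranked peak in both FAK-WT lists, 375 (28.2%) in 1 and 99 (7.44%, 6.15 to 8.97%) in none, or 0.293% of all regions. The regions with no peak of any strength in the other line are called exclusive below. The longer FAK-WT lists give FAK-null-only regions more chances of a weak overlap, and the part of list size in the gap between 21.5% and 7.44% was not tested.

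The 10 leading exclusive FAK-WT-only regions lay 15.5 to 830 kb from the nearest coding start site. A region is named here after the protein-coding gene with the nearest transcription start site (TSS), which need not be the gene it acts on. The first exclusive region lay in an intron of *Pappa*, whose product is a secreted metalloprotease that cleaves IGF-binding proteins, with a −log10 p of 23.0 and 19 in the FAK-WT libraries. A region 830 kb upstream of *Lrrc4c*, which encodes a netrin-G ligand at the cell surface, had 23.7 and 11.8. A region in an intron of *Slc4a4*, a sodium bicarbonate cotransporter, had 17.8 and 12.7. No peak was called at any of the 3 in either FAK-/- library. The remaining leading regions fell near *Cbln2* (2 regions, up to 19.4 and 13.5), a secreted synapse organiser, *Rgma* (21.1 and 9.87), a repulsive guidance molecule and BMP co-receptor, *Rbfox1*, a splicing factor, *Car10*, a carbonic anhydrase-related protein, *Fbxl2*, an F-box protein, and the vomeronasal receptor gene *Vmn2r12*.

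The leading exclusive FAK-null-only regions were near other genes. In an intron of *Fam189a1* the −log10 p was 11 and 9.21 in the FAK-/- libraries, and 665 kb from *Basp1*, which encodes a membrane-bound growth cone protein, it was 10.8 and 9.23. An intron of *Ppp2r5c*, a regulatory subunit of the phosphatase PP2A, held a region (10.4 and 8.82) whose nearest coding TSS was that of *Dync1h1*, the dynein heavy chain. The promoter of *Arhgap26* had 10.4 and 11.1. *Arhgap26* encodes GRAF, a protein known to bind FAK. An intron of *Tns3*, encoding the focal adhesion protein tensin 3, had 9.14 and 8.31. The other 5 were assigned to *Hrh4*, a histamine receptor, *Rps3a1* (within an exon of *Sh3d19*), *Ap1s3* (within *Wdfy1*), *Fstl1*, a secreted glycoprotein, and *Gpr21* (within an intron of *Rabgap1*).

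The reference sequence of the first 3 exclusive regions of each line (without regions from 1 chromosome that is not printed here) shows what letters the most line-specific accessible DNA holds. Each run is the central 300 bp of the region on the plus strand of mm10 (GRCm38). Capitals mark exact matches on either strand to TGACTCA or TGAGTCA (AP-1), TGACGTCA (CRE), AGGAAGT or CGGAAGT (ETS), ACATTCC or GCATTCC (TEAD), TGTGGTT (RUNX) and TTGCNNAA (C/EBP). The first 3 lines are FAK-WT-only and the others FAK-null-only.
Pappa intron, chr4:65254122-65254421: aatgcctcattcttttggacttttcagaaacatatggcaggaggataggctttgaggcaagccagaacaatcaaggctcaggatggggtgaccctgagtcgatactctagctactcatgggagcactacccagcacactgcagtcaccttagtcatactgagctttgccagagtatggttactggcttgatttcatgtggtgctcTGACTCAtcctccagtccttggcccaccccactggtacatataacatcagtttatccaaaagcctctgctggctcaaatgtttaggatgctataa
Lrrc4c upstream, chr2:95487738-95488037: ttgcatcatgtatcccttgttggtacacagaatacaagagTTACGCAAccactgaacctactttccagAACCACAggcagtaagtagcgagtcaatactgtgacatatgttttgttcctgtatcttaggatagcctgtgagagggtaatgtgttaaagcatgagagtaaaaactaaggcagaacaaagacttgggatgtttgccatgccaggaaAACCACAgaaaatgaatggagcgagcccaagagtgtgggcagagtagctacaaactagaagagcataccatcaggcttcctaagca
Slc4a4 intron, chr5:88983229-88983528: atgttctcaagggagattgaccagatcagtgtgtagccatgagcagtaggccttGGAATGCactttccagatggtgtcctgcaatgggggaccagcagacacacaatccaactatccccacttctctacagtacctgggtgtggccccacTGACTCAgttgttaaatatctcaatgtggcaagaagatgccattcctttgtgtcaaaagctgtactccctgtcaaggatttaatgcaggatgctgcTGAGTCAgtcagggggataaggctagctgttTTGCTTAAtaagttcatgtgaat
Fam189a1 intron, chr7:64919141-64919440: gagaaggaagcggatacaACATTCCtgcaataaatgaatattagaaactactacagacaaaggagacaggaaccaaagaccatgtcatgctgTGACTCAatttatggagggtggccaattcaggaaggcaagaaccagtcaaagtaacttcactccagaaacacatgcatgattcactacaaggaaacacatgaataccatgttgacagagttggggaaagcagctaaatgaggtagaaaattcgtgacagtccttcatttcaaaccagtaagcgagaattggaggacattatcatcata
Basp1 distal, chr15:24748770-24749069: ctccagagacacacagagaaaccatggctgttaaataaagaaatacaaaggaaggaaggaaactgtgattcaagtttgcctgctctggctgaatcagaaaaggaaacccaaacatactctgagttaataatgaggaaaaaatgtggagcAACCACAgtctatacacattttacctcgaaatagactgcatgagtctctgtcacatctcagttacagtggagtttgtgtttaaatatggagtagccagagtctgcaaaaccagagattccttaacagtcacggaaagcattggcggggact
Ppp2r5c intron, nearest TSS Dync1h1, chr12:110553424-110553723: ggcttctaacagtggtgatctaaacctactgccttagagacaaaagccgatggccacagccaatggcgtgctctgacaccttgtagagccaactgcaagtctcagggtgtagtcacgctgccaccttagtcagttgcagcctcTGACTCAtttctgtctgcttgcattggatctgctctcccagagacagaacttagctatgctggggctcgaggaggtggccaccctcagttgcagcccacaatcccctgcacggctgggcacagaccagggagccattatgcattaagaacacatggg

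AP-1 letters were present in the *Pappa* run (from base 206 of 300), in 2 copies in the *Slc4a4* run (from bases 151 and 247), and in the *Fam189a1* (base 93) and *Ppp2r5c* (base 144) runs. The *Lrrc4c* run held 2 RUNX matches and 1 C/EBP match but no AP-1 letters, and the *Basp1* run held 1 RUNX match. In the central 500 bp of regions, AP-1 letters stood in 50.5% of FAK-WT-only regions (95% Wilson interval 47.8 to 53.1%), 43.7% of FAK-null-only regions (41.0 to 46.3%) and 40.3% of all regions. Outside promoters these shares were 56.1%, 49.6% and 52.7%. Among exclusive regions they were 63.1% and 37.4%. The gap between the lines has to be read against the replicates. Regions called in 1 library alone held AP-1 letters in 50.6% and 39.0% for the FAK-WT libraries and 41.9% and 36.9% for the FAK-/- libraries, so the groups overlapped. Without FAK-WT replicate 1 the order of the sets turned, to 43.7% of FAK-WT-only and 46.6% of FAK-null-only regions. RUNX letters stood in 17.8% of FAK-WT-only, 15.0% of FAK-null-only and 13.7% of all regions, TEAD letters in 16.3%, 15.0% and 15.1%, ETS letters in 19.1%, 17.4% and 18.9%, and C/EBP letters in 18.5%, 21.0% and 18.3%. CRE letters were rare, in 0.864%, 1.13% and 1.5%. Outside promoters RUNX letters stood in 19.7%, 16.5% and 17%, and CRE letters in 0.417%, 0.876% and 0.739%. The FAK-null-only share thus changed sides of that of all regions for both.

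FAK-WT-only regions lay farther from genes than FAK-null-only regions. Their median distance to the nearest coding TSS was 30.8 kb, against 20 kb for FAK-null-only regions and 7.73 kb for regions called in all 4 libraries. More than 100 kb separated 25.8% of FAK-WT-only regions from any coding TSS (359 regions near 272 genes), compared with 14.6% of FAK-null-only regions, 11.1% of regions called in all 4 libraries and 13.7% of all regions. Both FAK-WT libraries were on the same side of both FAK-/- libraries in this measure. Among the regions called in each library, 13.6% and 13.1% lay beyond 100 kb in FAK-WT-expressing cells and 12.0% and 11.7% in FAK-/- cells. Among regions called in 1 library alone the values were 21.7% and 19.5% against 14.1% and 12.6%. Intergenic positions made up 43.5% of FAK-WT-only and 32.7% of FAK-null-only regions, and introns 40.1% and 48.3%. The promoter share hardly separated the sets, at 13.8% and 14.3%, and was 39.6% where all 4 libraries had a call.

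**Figure D2:**
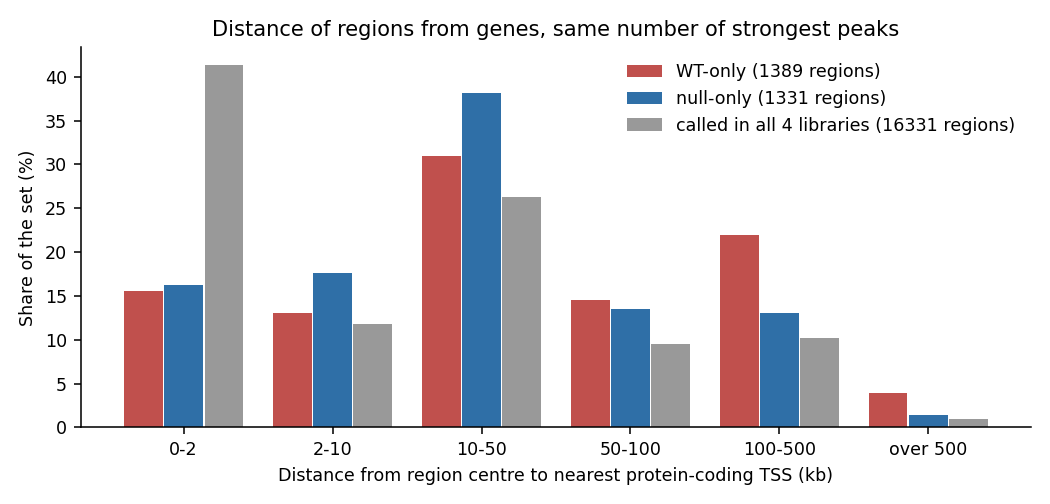
Distance of regions to the nearest protein-coding TSS in 6 bins (x axis, kb) as a percentage of each set (y axis), for FAK-WT-only regions, FAK-null-only regions and regions called in all 4 libraries. The bin from 100 to 500 kb holds 22.0% of FAK-WT-only and 13.1% of FAK-null-only regions, and the bin under 2 kb 41.3% of the regions called in all libraries.

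Most genes with a FAK-WT-only region had only 1, and a few had many. The regions were assigned to 1156 genes, of which 999 had 1 and 41 had 3 or more, and FAK-null-only regions to 1177 genes, of which 1053 had 1 and 19 had 3 or more, with 122 genes near both sets. *Lrrc4c* had 10 FAK-WT-only regions among its 18, and 9 of them were exclusive. They stretched over 1950 kb from 830 kb upstream of the first TSS into the gene. Counting all peaks, 42 and 21 regions near *Lrrc4c* were called in the FAK-WT libraries and 4 and 2 in the FAK-/- libraries. *Pappa* had 6 FAK-WT-only regions among its 9, within 195 kb, and 17 and 13 regions were called in FAK-WT-expressing cells against 1 and 0 in FAK-/- cells when all peaks were counted. These genes were chosen for their FAK-WT-only calls, so the counts are a description. *Rarb*, which encodes a retinoic acid receptor, had 6 of 12, with 21 and 13 against 6 and 5 regions over all peaks. The highest-ranked of these 6 *Rarb* regions had a −log10 p of 12 and 8.5 in FAK-WT-expressing cells against 5.46 and 4.71 in FAK-/- cells. Exclusive were 2 of the 6. The first of them, 27.6 kb upstream of a TSS, had 11.4 and 10.2 in FAK-WT-expressing cells with no peak in FAK-/- cells. *Efnb2*, encoding the Eph receptor ligand ephrin-B2, had 6 of 20, all downstream and up to 1400 kb away in a stretch with few genes, and over all peaks its calls (33 and 21 against 18 and 15) differed less. The splicing factor gene *Rbfox1* had 5 of 9 and *Flrt2*, encoding a guidance and adhesion receptor, 5 of 24.

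On the FAK-null-only side the same rule gave *Bcor*, a transcriptional corepressor, with 5 of 7 regions, the growth factor gene *Fgf1* with 5 of 6, and 4 each for *Ptprg* (a receptor tyrosine phosphatase), *Foxp1* and *Klf6* (transcription factors) and *Lhfpl2*. These were differences in rank more than in presence. None of the *Bcor* regions and 1 of the *Fgf1* regions was exclusive, and over all peaks *Bcor* had 14 and 9 regions called in FAK-WT-expressing cells against 12 and 12 in FAK-/- cells. The region 66.6 kb from the *Fgf1* TSS shows the limit of the rule. Its −log10 p was 7.81 and 3.99 in FAK-WT-expressing cells and 7.26 and 6.34 in FAK-/- cells, and it was left out of the strongest peaks of FAK-WT replicate 1, which stopped at 8.1. *Ptprg* had 11 and 4 regions over all peaks in FAK-WT-expressing cells and 15 and 9 in FAK-/- cells, so the lines overlapped there too.

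**Figure D3:**
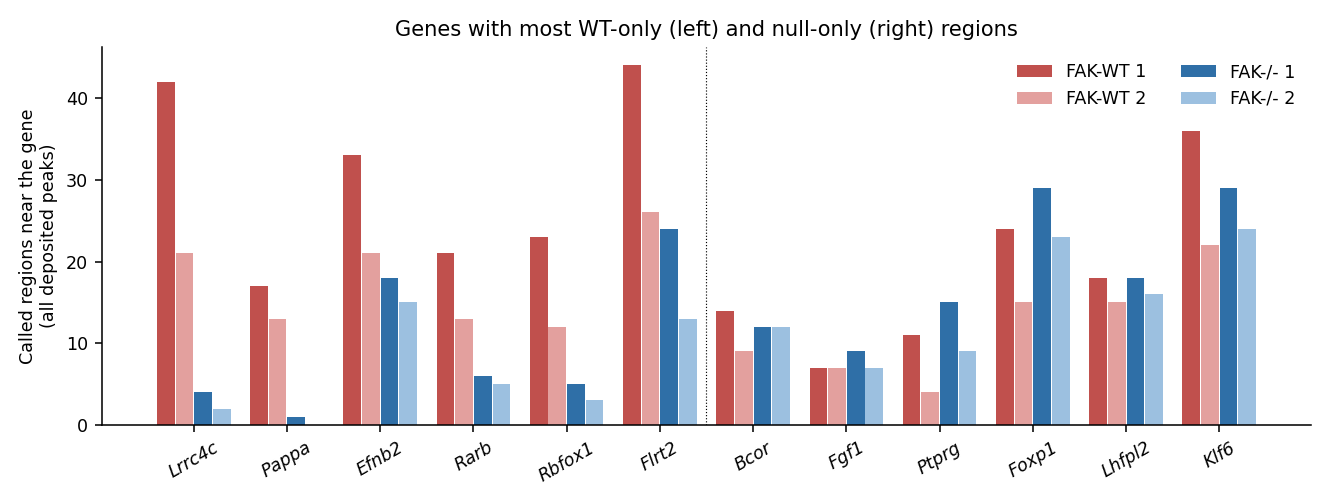
Bars give the number of regions called over all peaks in each of the 4 libraries (y axis) near the 6 genes with most FAK-WT-only regions and the 6 with most FAK-null-only regions (x axis). The genes were chosen by these calls, as a description, with 42 and 21 against 4 and 2 regions at *Lrrc4c*, 17 and 13 against 1 and 0 at *Pappa*, and overlapping values of the lines at *Bcor*.

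Promoters that differed were mostly weak in 1 line and stronger in the other. Of 191 FAK-WT-only promoter regions, 143 had a lower-ranked peak in both FAK-/- lists and 11 were exclusive. Of 190 FAK-null-only promoter regions, 146 and 10 were. Among FAK-WT-only promoters, *Thrb*, which encodes a thyroid hormone receptor, was exclusive with a −log10 p of 16.7 and 8.70. *Dusp5*, encoding a nuclear phosphatase that inactivates ERK, had 12.6 and 11.2 in FAK-WT-expressing cells, 6.05 in FAK-/- replicate 1 and no peak in replicate 2. *Prss23*, a secreted serine protease, had 12.1 and 8.01 against 6.07 and 5.06. The others were *Trappc1* (vesicle tethering), *Clec1a* (a C-type lectin receptor), *Recql5* (a DNA helicase), *Srrt* (an RNA cap-complex factor) and *1700025G04Rik*. Among FAK-null-only promoters, *Rbpms*, encoding an RNA-binding protein, had 18.9 and 11.9 in FAK-/- cells against 5.26 and no peak in FAK-WT-expressing cells. *Ror2*, a receptor for Wnt5a, had 11.9 and 7.81 against 7 and 3.81, and *Nfatc2*, a calcineurin-dependent transcription factor, had 11 and 8.91 against 7.40 and 4.20. *Arhgap26* (above), *Osbpl1a* (a lipid-binding protein), *Iqsec1* (an exchange factor for Arf6), *Irs2* (an adaptor of insulin and IGF receptors) and *St3gal5* (the ganglioside GM3 synthase) completed this group. Promoter calls depended on the number of peaks taken. With all peaks, 1 of the 8 FAK-WT-only and 0 of the 7 FAK-null-only promoters kept their set, with *Arhgap26* counted among the exclusive regions instead.

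Genes were also grouped in functional lists, and the share of each list's regions in either set was read beside the 4.11% and 3.94% of all regions. Matrix proteases and their inhibitors had 9 FAK-WT-only regions of 101 (8.91%, 95% Wilson interval 4.76 to 16.1%) and 4 FAK-null-only regions (3.96%). Of the 9, *Pappa* held 6, and others were at *Pappa2*, a related protease (13.9 and 10.6 against no peak and 4.30), and *Adamts5*, an aggrecanase. The FAK-null-only ones were at *Timp3* (2 regions), *Adam19* and *Plau*, which encodes urokinase. TGF-beta and BMP signalling had 15 FAK-WT-only regions of 177 (8.47%, 5.20 to 13.5%) and 6 FAK-null-only regions (3.39%). The FAK-WT-only regions were spread over 12 genes. Within 100 kb of a coding TSS the list had 7 FAK-WT-only and 6 FAK-null-only regions of 120. Of all 4636 regions beyond 100 kb, 359 were FAK-WT-only. Ligands among the 12 genes were *Bmp2* (2 regions, the first with 20.2 and 8.30 against 4.39 and no peak), *Bmp7*, *Tgfb2* and *Inhba*. Receptors were *Tgfbr2* (14.0 and 8.39 against 4.57 and 4.80), *Tgfbr3* and *Acvr2a*. The rest were the antagonist *Fst*, the latency proteins *Ltbp1* and *Ltbp2*, the transducer *Smad3* and the target *Id2*. The promoters of *Tgfb1* and *Inhba* were FAK-null-only, as were regions at *Smad3* (2), *Id3* and *Smad7*. Only 2 of the 15, at *Fst* and *Bmp2*, were exclusive. With all peaks, FAK-WT-only regions made up 10.9% of the regions of the first list (19 of 174) and 7.27% of the second (24 of 330), beside 5.39% of all regions.

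Focal adhesion adaptors and kinases had 1 FAK-WT-only region of 161 (0.621%, 0.110 to 3.43%), beside 4.11% of all regions. They had 9 FAK-null-only regions (5.59%, 2.97 to 10.3%), an interval that holds the 3.94% of all regions. The FAK-WT-only region was exclusive and lay in an intron of *Lpp*, a zyxin family protein. The 9 lay at 9 genes, namely the tensins *Tns3* and *Tns1* (promoter), the actin linkers *Vcl* (8.49 and 11 against 6.39 and 4.53), *Actn1* and *Tln1*, the Cas family scaffolds *Nedd9* (7.99 and 6.37 against 7.21 and 4.70) and *Cass4*, the actin regulator *Enah*, and *Ptk2* itself. Of these, *Tns3* alone was exclusive, and with all peaks the list had 9 FAK-WT-only and 6 FAK-null-only regions of 308 (2.92% and 1.95%), beside 5.39% and 1.29% of all regions.

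At equal peak number the other lists stayed nearer the background or held few regions. With all peaks, 8.33% of keratinocyte gene regions and 7.71% of those of semaphorins, slits and guidance receptors (27 of 350) were FAK-WT-only. These shares lay above the 7.27% of TGF-beta and BMP signalling, beside 5.39% of all regions. Counts that follow are at equal peak number unless stated. Growth factors and receptor tyrosine kinases had 8 FAK-WT-only regions at only *Efnb2* (6) and *Vegfc* (2), the lymphangiogenic VEGF, and 7 FAK-null-only regions at *Epha2*, *Fgfr2*, *Nrg1*, *Met* (promoter) and *Btc*, of 154. Both *Vegfc* regions were exclusive (14.0 and 7.37, and 10.3 and 6.64). Semaphorins, slits and guidance receptors had 8 and 7 of 180, with *Plxna2*, *Robo2* and *Sema6d* in both sets, and epithelial-mesenchymal transition genes 7 and 4 of 156, the FAK-WT-only ones at *Sox9* (4), *Tcf4* (2) and *Cdh2*, the N-cadherin gene, and the FAK-null-only ones at *Cdh2*, *Sox9*, *Zeb1* and *Runx2*. Cytokines and chemokines had 3 FAK-WT-only regions of 51, at *Il24*, *Lif* and the promoter of *Cxcl10* (10.4 and 5.94 against 5.51 and 4.16), and 1 FAK-null-only region in *Ccl5*. Interferon response and antigen presentation had 1 FAK-WT-only region of 54, at the promoter of *Nlrc5*, the MHC class I transactivator. Its 4 FAK-null-only regions were 2 near *Mx1* (the first 14.1 and 9.95 against 4.33 and no peak), 1 in *Jak2* and 1 at the promoter of *Cd274*, which encodes PD-L1 (7.40 and 6.28 against 6.46 and 4.53). The 2 assigned to *Mx1* lay within exons of *Fam3b* and *Bace2*. Keratinocyte genes had 0 and 2 of 58, both at *Klf4*. With all peaks they had 10 FAK-WT-only regions, at 10 genes, and 2 FAK-null-only regions of 120 (8.33% and 1.67%). Wnt signalling had 6 of 115 at *Tcf7l2* (2), *Wnt9a*, *Wnt5b*, *Axin2* and *Fzd8*, and 4 FAK-null-only regions, 3 of the latter near *Ctnnb1*, the beta-catenin gene, and 1 in *Sfrp1*, a Wnt antagonist. The p53 pathway and cell cycle had 1 and 4 of 111, and AP-1 and related factors 3 and 3 of 98, with *Jun* and *Maf* FAK-null-only and *Atf3*, *Maff* and *Nfe2l2* FAK-WT-only. Counts of FAK-WT-only and FAK-null-only regions were 4 and 1 of 54 for cytosolic ribosomal proteins, 4 and 2 of 86 for ETS factors, 5 and 7 of 147 for collagens and other matrix proteins and 3 and 3 of 90 for integrins and laminins. They were 2 and 1 of 73 for actin and contractile genes, 2 and 4 of 86 for Notch signalling, 2 and 3 of 90 for YAP, TEAD and targets and 1 and 1 of 56 for the IGF system, both at *Irs2*.

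**Figure D4:**
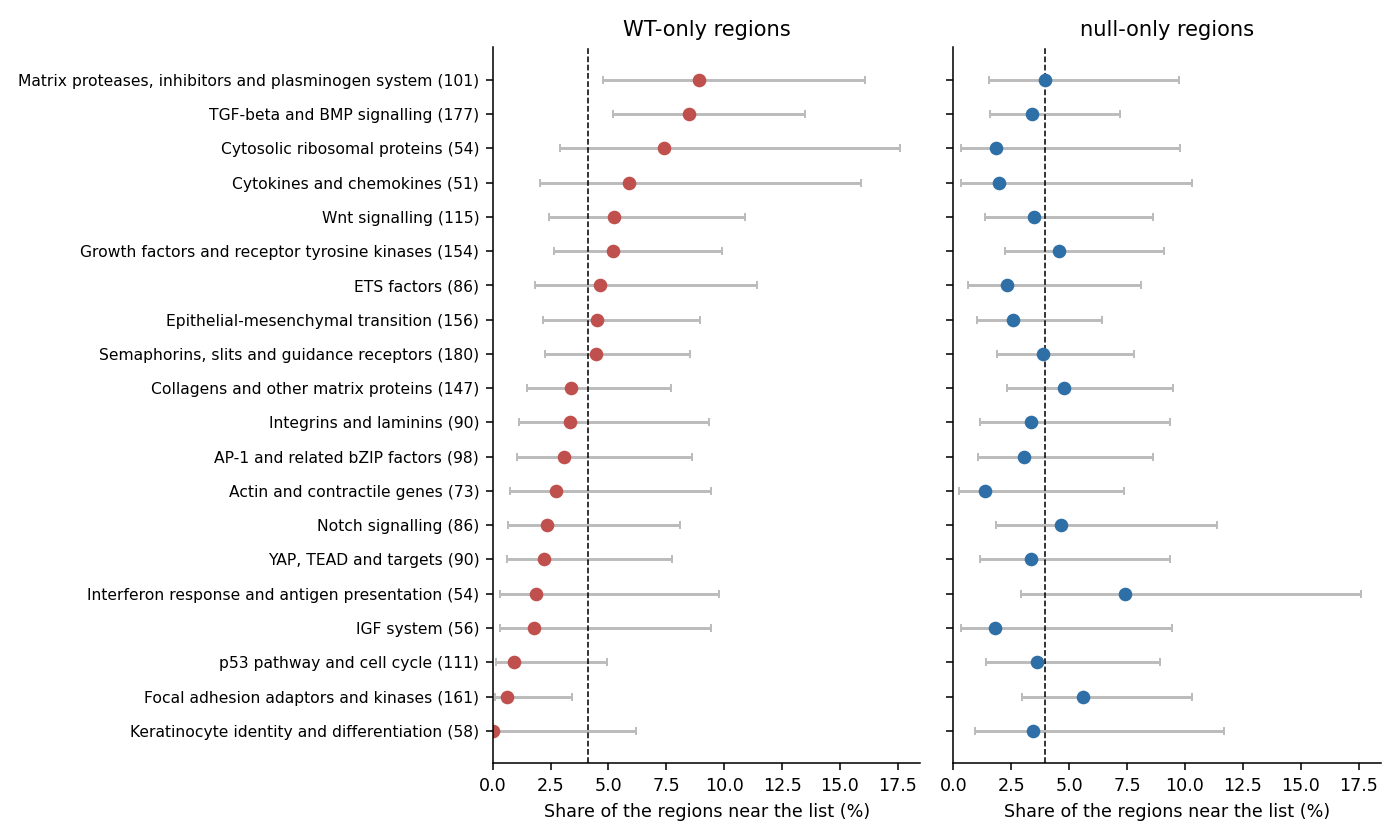
Percentage of the regions of each of 20 gene lists that were FAK-WT-only or FAK-null-only (x axis, points with 95% Wilson intervals) at equal peak number, with dashed lines at the shares over all regions, 4.11% and 3.94%. Matrix proteases (8.91%, with 6 of their 9 FAK-WT-only regions at *Pappa*) and TGF-beta and BMP signalling (8.47%) lie highest for FAK-WT-only. Focal adhesion genes lie lowest apart from keratinocyte genes (0.621% and 0).

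A graded comparison was possible at the 27497 regions with exactly 1 peak in each library. The sets over all peaks contain none of these, but the sets at equal peak number overlap some of them. Examples named below are FAK-WT-only regions at *Tgfbr2*, *Tgfb2* and *Cdh2* and a FAK-null-only region at *Epha2*. Graded values at such regions are not independent of the sets. Log2 fold enrichment, centred on the median of each library, was fitted in limma. After Benjamini-Hochberg adjustment over all regions, 2 regions were higher in FAK-WT-expressing cells (0.00727% of those tested) and 2 lower (0.00727%), while 1182 and 1374 had an unadjusted p under 0.05. Region strengths correlated across regions at r = 0.757 between the FAK-WT libraries and 0.793 between the FAK-/- libraries, and at 0.703 to 0.750 between lines, although regions are not independent replicates.

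The higher regions lay 154 kb from *Alg10b*, a glycosyltransferase of the N-glycan pathway, and 22.6 kb from *Ldhb*, the lactate dehydrogenase B subunit. At *Alg10b* fold enrichment was 9.56 and 8.40 against 4.32 and 3.48, a log2 difference of 1.09 (SE 0.14, limma adjusted p = 0.0149). At *Ldhb* it was 7.68 and 7.45 against 3.72 and 3.28 (log2 0.99, SE 0.15, limma adjusted p = 0.0332). At each, both FAK-WT libraries were above both FAK-/- libraries. The lower regions lay 62.6 kb upstream of *Myo10*, the myosin of filopodia, with 4.37 and 3.68 against 7.15 and 7.16 (log2 −0.96, SE 0.15, limma adjusted p = 0.0332), and in an intron of *Myo16*, an unconventional myosin, with 6.26 and 3.81 against 8.73 and 8.89 (log2 −0.97, SE 0.16, limma adjusted p = 0.0497). Leaving out 1 library at a time, each of the 4 regions kept its direction and an adjusted p under 0.05 in 3 of 4 fits, with a largest adjusted p of 0.0566 to 0.0775, reached without FAK-WT replicate 2, when no region passed. In such a fit the lone library is assumed to vary like the other line. Without centring on the median none of the 4 passed (limma adjusted p of 0.104, 0.132, 0.372 and 0.42, in the order named). *Myo10* and *Myo16* missed the threshold under quantile normalization (limma adjusted p = 0.0558 for each), and *Myo16* also without a trend (limma adjusted p = 0.0785) and with all 8 libraries in the fit (limma adjusted p = 0.158).

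On log2 pileup, the coverage itself, many more regions passed, namely 377 higher (1.37%) and 306 lower (1.11%) in FAK-WT-expressing cells. Fold enrichment had the same sign at 359 and 306 of them. With a library left out, the line with 1 library takes its spread from the other line. The counts were then 65 higher and 32 lower without FAK-/- replicate 2, 123 and 46 without FAK-/- replicate 1 and 730 and 757 without FAK-WT replicate 2. Pileup also moved along whole stretches of chromosomes. The median difference of all regions was 0.08 on chromosome 3, with 77 higher and 12 lower calls, and −0.14 on chromosome 7, with 16 and 41, and across 435 windows of 5 Mb it ran from −0.35 to 0.39. After each window was set to its own median, 205 higher and 171 lower regions passed, 179 and 148 of them among the calls above. The part of copy number or broad coverage in these windows was not tested. Values in the next paragraphs on single regions and gene lists are on the pileup scale, and "centred" marks an adjusted p after this step.

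The *Ldhb* region, which came after *Alg10b* on fold enrichment, led on pileup, at 33.6 and 27.2 reads against 7.55 and 6.36 (log2 1.93, limma adjusted p = 1.52e-07, centred 3.38e-06). It was followed by an intron of *Grin2a*, an NMDA receptor subunit, with 45.1 and 29.3 against 12.1 and 11.8 (log2 1.41, centred limma adjusted p = 2.69e-06). Regions near *Sntb1* (a syntrophin), *Gpr149*, *Col24a1*, *Nwd2* and *Tet2*, a DNA demethylase, and 1 more region 927 kb upstream of *Lrrc4c* (30.4 and 20.8 against 7.51 and 9.22) were also among the first 10. Fold enrichment differed less between the lines at these regions, with a log2 difference of 0.38 at *Grin2a* and 0.17 at *Tet2*. Of the 10 higher regions on pileup, *Ldhb* alone passed on fold enrichment. Among regions higher in FAK-/- cells, *Myo10* led (11.6 and 7.88 against 26.7 and 20.6, log2 −1.5, limma adjusted p = 2.61e-05, centred 8.29e-05). A region 29.9 kb upstream of *Ap1s3* followed, beside the exclusive FAK-null-only region 31.7 kb upstream, with 14.6 and 12.7 against 28.5 and 28.8. The *Myo16* region came next (log2 −1.39, limma adjusted p = 9.88e-05, centred 0.000542), and regions in *Fam189a2*, *Dym*, *Cyp7b1* (an oxysterol hydroxylase) and near *Gprc5d* were also among the first 10. On fold enrichment *Myo10* and *Myo16* alone of these 10 passed, and the log2 difference at *Gprc5d* was −0.26. All 20 leading pileup regions passed after centring. In each of these regions both libraries of 1 line were above both of the other.

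Promoters made up 57 of the 377 and 53 of the 306 regions, a lower share than the 9173 of all 27497 regions tested. The *Sema3c* promoter, of a secreted semaphorin, had a pileup of 52.6 and 28.9 against 20.9 and 13.0 (log2 1.04, limma adjusted p = 0.000304, centred 0.00551), but its fold enrichment did not follow (log2 0.06). Lower in FAK-WT-expressing cells were the promoters of *Sfrp1* (13.6 and 8.50 against 20.7 and 24.1, log2 −1.25, centred limma adjusted p = 0.0011), where an exclusive FAK-null-only region lay in the gene as well, *Rab36*, a small GTPase (13.6 and 11.4 against 26.8 and 23.2), and *Herc2*, a ubiquitin ligase (54.0 and 40.3 against 73.0 and 61.7).

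**Figure D5:**
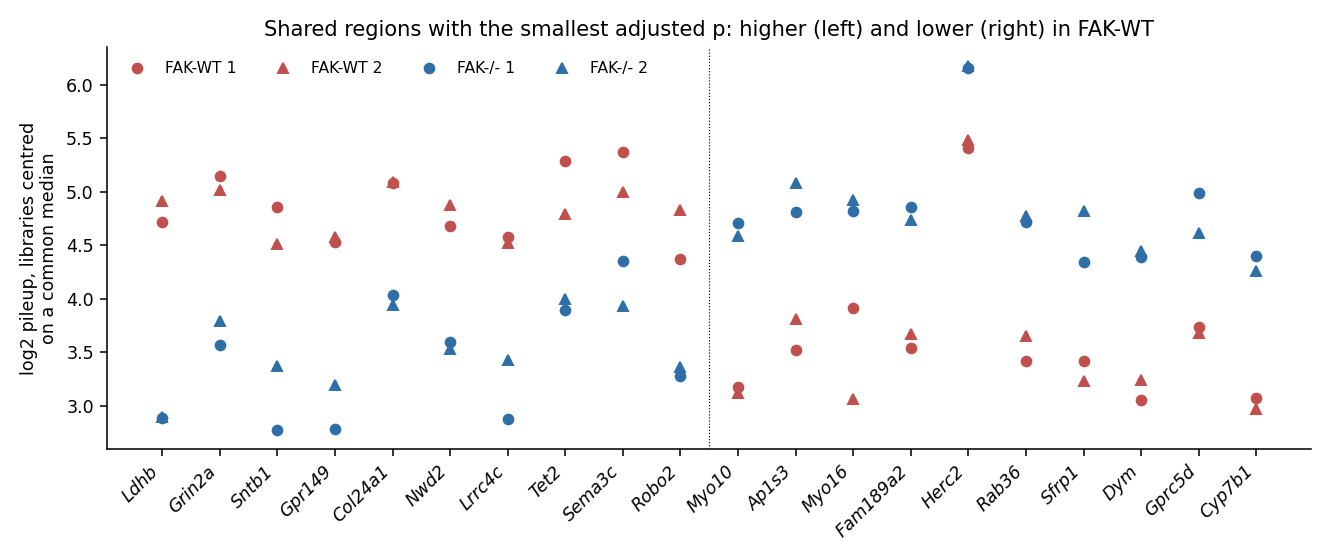
Log2 pileup with the libraries centred on a common median (y axis) in each of the 4 libraries (points) at the 10 regions with the smallest adjusted p in each direction (x axis), higher in FAK-WT-expressing cells on the left and lower on the right. At each region shown both libraries of 1 line lie above both of the other, as at *Ldhb*, where the uncentred values were 33.6 and 27.2 against 7.55 and 6.36 reads.

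By gene list, guidance genes had 10 higher and 0 lower pileup calls among 134 shared regions (7.46%, beside 1.37% of all regions), at *Plxna2* (3), *Sema3c* (2), *Sema5a* (2), *Sema6d*, *Unc5c* and *Robo2*, and 4 of the 10 passed after centring. *Robo2*, a slit receptor, changed most, with 26.2 and 25.8 against 9.91 and 8.78 reads, whereas the fold enrichment differences of the 10 ran from −0.14 to 0.68. Epithelial-mesenchymal transition genes had 5 higher and 0 lower of 129 (*Sox9* with 2, *Tcf4*, *Twist1* and *Cdh2*), of which 2 passed after centring. Growth factors and receptors had 1 higher, near *Vegfc* (log2 1.34, centred limma adjusted p = 0.000915), and 4 lower, at *Areg*, *Btc*, *Epha2* and *Fgf2*, of 111 (3.6%, beside 1.11% of all regions), where *Areg* and *Btc* alone passed after centring. TGF-beta and BMP genes had 3 higher (*Tgfbr2* with 2, and *Tgfb2*) and 5 lower (*Id2* with 3, *Smad7* and *Inhba*) of 129, or 2.33% and 3.88%, of which 1 of each direction (*Tgfb2* and *Smad7*) passed after centring. Focal adhesion genes were near the share of all regions, with 0 higher and 2 lower of 145 (1.38%), at *Nedd9* (log2 −0.94, centred limma adjusted p = 0.0388) and *Fermt2*, the kindlin 2 gene (log2 −0.89, centred limma adjusted p = 0.0614). Calls at 4 of 81 AP-1 family regions were lower (4.94%), 2 each at *Fosb* and *Bach2*, and none passed after centring. The genes with most calls were *Adgrl4* (7 of 17 regions higher) and *Ttll7* (6 of 11), both on chromosome 3, of which 2 and 1 calls passed after centring, and *Ncam1*, a neural adhesion molecule (4 of 12 lower), where all 4 passed.

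No region at *Ptk2*, which encodes FAK, passed the graded test, and peak calls there do not check the deletion. The gene (chr15:73205102-73423280) with 25 kb upstream held 10 regions over all peaks, 8 of them called in all 4 libraries, with differences in log2 fold enrichment from −0.27 to 0.06 (limma adjusted p of 0.599 or more). The promoter region had a −log10 p of 20.4 and 15.0 in FAK-WT-expressing cells and 12.7 and 12.1 in FAK-/- cells, so the lines did not overlap in this value. Its median over regions called in all 4 libraries also differed, at 14.9 and 9.91 against 11.2 and 9.16. After centring of libraries the promoter differed by log2 0.06 on fold enrichment (limma adjusted p = 0.946) and 0.25 on pileup (limma adjusted p = 0.456). *Il33*, an alarmin cytokine, was read out with 50 kb upstream and held 8 regions. The one 7.5 kb upstream of the gene start had 18.5 and 8.09 against 7.04 and 4.82 (log2 fold enrichment 0.53, SE 0.17, limma adjusted p = 0.311), and the one 37.4 kb upstream went the other way, with 9.62 and 8.67 against 15.1 and 10.9 (log2 −0.45, adjusted p = 0.34 in the same limma fit). In the gene body, a region 17.5 kb from the start (chr19:29942388-29942780) had 13.5 and 5.77 in the FAK-WT libraries, 10.2 in FAK-/- replicate 1 and no peak in FAK-/- replicate 2. A second one, 21.2 kb from the start (chr19:29945685-29946865), was called only in the FAK-WT libraries, at 4.65 and 4.33, below the strongest peaks of either list. The study placed its *Il33* enhancer and promoter peaks relative to a TSS, whereas distances here run from the annotated gene start. Whether the gene-body regions are those peaks was not tested.

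The labelled cell type was checked at marker promoters over all peaks. Of 10 keratinocyte markers, 0 were called in all 4 libraries and 7 in none, *Krt5* and *Trp63* among them, whereas 4 of 6 fibroblast markers (*Col1a1*, *Col1a2*, *Col3a1* and *Pdgfra*) had a promoter peak in all 4 and the other 2 (*Dcn* and *Lum*) in none. *Vim* was called in all 4, and the simple epithelial keratins *Krt8* and *Krt18* in 1 library each. Of the 5 melanocyte markers *Pmel* was called in all 4 libraries and the others in none. Of 6 leukocyte markers 0 were called in any library, and of 5 endothelial markers only *Cdh5* had a call, at 3.46 and 5.15 in FAK-WT-expressing cells and none in FAK-/- cells. Keratinocyte promoters thus had few calls in either line, and the lines had the same marker calls except at *Cdh5* and at 5 genes called in 1 library each.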

How the data were processed

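ATAC-seq was performed on SCC cell lines, and 4 of the 8 libraries were used here. The authors aligned reads to mm10 with the bcbio pipeline and called broad peaks with MACS2 (version 2.1.1 in the submitters' processing notes) in each sample, without pooling replicates. Reads were shifted and extended in peak calling. The deposited lists give the length of each peak in bp, its pileup (coverage signal in reads, not stated by the authors to be scaled), the −log10 of its q-value and of its p-value as deposited, and the fold enrichment, a deposited ratio to the local background of the same library. They hold no read counts per region, so differential accessibility on counts was not run, and reads per library were not used here. The lists differ in length, so an equal number of peaks was taken.

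Only chromosomes 1 to 19, X and Y were used (15 to 25 peaks of a library were left out). The strongest 24383 peaks of each library, as many as the shortest of the 8 lists holds, were ranked by −log10 p and made up 45.4%, 62.5%, 56.5% and 69.2% of the lists of FAK-WT 1, FAK-WT 2, FAK-/- 1 and FAK-/- 2. Peaks overlapping by at least 1 bp were merged (Python 3.11.15, pandas 2.3.3), and regions were assigned by their centre to the nearest protein-coding TSS of GENCODE vM21. Promoters reached 500 bp before and 2000 bp past a TSS. Letters were sought in the central 500 bp of each region in GRCm38. Log2 values were fitted with limma 3.58.1 (R 4.3.3, trended eBayes, Benjamini-Hochberg adjustment, threshold 0.05), and the scripts were tested on simulated data. Wilson intervals cover the counting of regions only.

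Named per direction were the 10 exclusive regions and 8 promoters with the best worst rank, the 6 genes with most regions of 1 set and none of the other, examples among list members with a region of either set (counts alone are given for some lists), the 10 graded regions with the smallest adjusted p, and *Ptk2* and *Il33*. A gene list and 1 list member are not reported here. Other genes with several pileup calls were named after their values were seen. The members and lists were chosen with earlier results of these data known. Alternatives covered the peaks taken, their ranking, width and merging, the overlap and q-value required, annotation, scaling, the graded value, a replicate block and leaving out each library.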

Additional observations from a re-analysis of the deposited data

How the results depend on the processing

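At equal peak number the counts of FAK-WT-only and FAK-null-only regions moved by over 1.5 times under 2 of the choices of peaks, to 3385 and 810 with all peaks and to 2681 and 403 with a −log10 q of at least 3. Leaving out 1 library, which relaxes the definition, gave 2446 to 3394 and 2426 to 3341 regions.

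The promoter share of FAK-WT-only regions was 5.79% with all peaks, 3.69% in exclusive regions, 18.4% with the TSS of all annotated genes and 10.6 to 19.2% with 1 library left out. That of FAK-null-only regions was 10.1% in exclusive regions, 20.7% with all TSS and 12.1 to 23.4% with 1 library left out. The share beyond 100 kb was 41.3% and 21.2% in exclusive regions and 12.5% and 4.36% with all TSS, and 21.5 to 23.5% and 12.4 to 14.3% with 1 library left out, so FAK-WT-only regions kept the higher share in each. The share with AP-1 letters was 45.2% and 34.6% with all peaks, 63.1% and 37.4% in exclusive regions, 33.8% and 32.0% in the central 200 bp, 56.1% and 49.6% outside promoters, and 43.7 to 50.5% and 39.4 to 46.6% with 1 library left out, where FAK-WT-only regions had the lower share (43.7% against 46.6%) without FAK-WT replicate 1.

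The FAK-WT-only share of matrix proteases and their inhibitors was 4.95% in exclusive regions (0.881% of all regions), and these exclusive regions all lay at *Pappa*. With 1 library left out it was 9.9 to 13.9% (7.23 to 10% of all regions), so nearer to the share of all regions. The FAK-WT-only share of TGF-beta and BMP genes was 1.13% in exclusive regions (0.881% of all regions) and was 11.3 to 15.3% with 1 library left out (7.23 to 10% of all regions). The FAK-null-only share of focal adhesion genes was 1.95% with all peaks (1.29% of all regions), 0.621% in exclusive regions (0.293% of all regions) and 9.32 to 12.4% with 1 library left out (7.17 to 9.88% of all regions).

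Of the graded calls (2 higher, 2 lower), pileup gave 377 and 306, no centring 0 and 0 (unadjusted p under 0.05 at 1877 and 181), the strongest peaks only 0 and 0 (656 and 764), quantile normalization 2 and 0, and eBayes without trend 2 and 1. With 1 library left out the counts were 0 to 35 and 0 to 31. At the *Sema3c* promoter the log2 fold enrichment difference turned to −0.13 without FAK-/- replicate 2, within a range of −0.13 to 0.26 over the libraries left out. The following were chosen after seeing the data. Pileup with 5 Mb windows centred gave 205 and 171, and pileup gave 357 and 466 without FAK-WT replicate 1, 730 and 757 without FAK-WT replicate 2, 123 and 46 without FAK-/- replicate 1 and 65 and 32 without FAK-/- replicate 2.

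With the replicate number as a block 7 and 6 regions passed, and on pileup 510 and 453. Deviations of same-numbered libraries correlated at r = 0.0836 across regions (0.08 on pileup). The labels do not say whether same-numbered libraries share a batch or day. The cause of these shifts was not tested. What limits the comparison is 2 libraries per line, 1 clonal background, lists of unequal length and signal known only inside called peaks.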
